A study of Mus musculus with 9 samples.

Results

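Single-cell RNA sequencing of mouse forelimb buds was used to follow the collagen genes that are not cartilage collagens. Members were all symbols of the form Col, number, a, number in the gene list of the matrices, without *Col2a1*, *Col9a1*, *Col9a2*, *Col9a3* and *Col11a1*, 5 genes of cartilage collagens. *Col11a2*, whose chain also occurs in cartilage fibrils, stayed among the members. This left 39 of the 44 collagen genes among 32289 features. Pairs of forelimb buds were taken at E10.75 (37 to 39 somites) from embryos bred into a Swiss Albino background, and each pair gave its own library. There were 3 wild-type libraries (Wt), 3 from embryos homozygous for EC1CRM8Δ/Δ (E1C8Δ/Δ) and 3 from embryos homozygous for EC1CRM5Δ/Δ (E1C5Δ/Δ). Both mutants lack enhancers of *Grem1*, which encodes a secreted antagonist of bone morphogenetic proteins, and they share the EC1 deletion, to which the loss of CRM8 or of CRM5 is added. The *CRM8* deletion was introduced by Cas9 into zygotes that already carried the EC1 deletion. The mutations are in the germ line, so that all cell types of a mutant limb bud carry them.

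Collagens are triple-helical proteins of the extracellular matrix. Fibrillar collagens assemble into the fibrils of connective tissue, collagen IV forms the network of basement membranes, collagen VI makes beaded filaments, and smaller classes decorate fibrils, span the plasma membrane or carry sugar chains in basement membranes. In the early limb bud, basement membranes lie under the ectoderm and around blood vessels and muscle precursors, while fibrils are laid down by the mesenchyme that will give rise to skeleton, tendon and other connective tissue. Of the 39 members, 9 encode fibrillar chains, 6 chains of collagen IV, 6 chains of collagen VI, 6 fibril-associated collagens and 4 transmembrane collagens. The others are 2 multiplexins, 3 chains of hexagonal networks (collagens VIII and X), *Col7a1* of the anchoring fibrils and the less studied *Col26a1* and *Col28a1*. All values are transcripts, counted as unique molecular identifiers (UMIs) at the 3′ end, so that 1 UMI stands for 1 transcript end whatever the length of the gene. The limb buds were digested with collagenase, which acts on the protein and not on the transcripts counted.

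The genes on which the results turn are *Col4a1* and *Col4a2*, which encode the main chains of basement membrane collagen and start head to head on chromosome 8 (*Col4a1* at 11198423 to 11312826 on the minus strand, *Col4a2* at 11312805 to 11449287 on the plus strand), and the fibrillar genes *Col5a1* (chromosome 2, 27886425 to 28039514, plus strand) and *Col1a2* (chromosome 6, 4504814 to 4541544, plus strand). All coordinates are those of mouse build mm10 (GRCm38). The upstream regions of *Col4a2*, *Col5a1* and *Col1a2* are shown because these genes moved with cell type, position or genotype. The RefSeq windows of build GRCm38.p6 run from 250 bases before the start of a gene to 50 bases after it, on the gene's own strand, each start as RefSeq places it, at chr8:11312555-11312854 for *Col4a2*, chr2:27886175-27886474 for *Col5a1* and chr6:4505368-4505667 for *Col1a2*. For *Col1a2* the RefSeq start lies downstream of the gene start given above, so that its window is inside the annotated gene. Capitals mark the motifs GGGCGG, the GC box, and CCAAT, the CCAAT box, on either strand (CCGCCC and ATTGG on the other).
Col4a2: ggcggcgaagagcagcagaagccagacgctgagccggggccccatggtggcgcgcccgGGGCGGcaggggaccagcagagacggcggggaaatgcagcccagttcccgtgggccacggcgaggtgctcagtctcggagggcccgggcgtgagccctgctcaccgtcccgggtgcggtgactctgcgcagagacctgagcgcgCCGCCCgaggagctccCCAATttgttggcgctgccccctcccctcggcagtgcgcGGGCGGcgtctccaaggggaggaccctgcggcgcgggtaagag
Col5a1: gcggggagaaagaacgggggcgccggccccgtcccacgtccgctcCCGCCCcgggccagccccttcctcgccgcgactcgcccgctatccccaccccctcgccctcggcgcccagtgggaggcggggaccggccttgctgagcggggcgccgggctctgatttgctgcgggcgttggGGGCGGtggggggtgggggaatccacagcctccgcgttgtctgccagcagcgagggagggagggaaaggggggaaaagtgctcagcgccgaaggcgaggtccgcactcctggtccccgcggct
Col1a2: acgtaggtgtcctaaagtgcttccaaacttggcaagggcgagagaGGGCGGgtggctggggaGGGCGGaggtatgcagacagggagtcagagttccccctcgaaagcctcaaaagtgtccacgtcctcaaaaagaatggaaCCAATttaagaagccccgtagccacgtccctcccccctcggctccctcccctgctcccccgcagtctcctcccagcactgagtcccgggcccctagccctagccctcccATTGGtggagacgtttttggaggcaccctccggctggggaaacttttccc
The start of *Col4a2* is base 251 of its window, and that of *Col4a1* on the opposite strand is base 272. The 2 starts thus lie 21 bases apart, with the annotated 5′ ends overlapping, and both fall within this window. The window up to base 272 is thus inside the annotated *Col4a1*, with every motif marked in it. The window of *Col4a1* itself, chr8:11312777-11313076, overlaps it only in part and held 1 match to GGGCGG and 1 to CCAAT. That of *Col4a2* held 3 matches to GGGCGG and 1 to CCAAT, that of *Col5a1* 2 and 0, and that of *Col1a2* 2 and 2. The GC content was 73.7% for *Col4a2*, 75.0% for *Col5a1* and 61.0% for *Col1a2*, against a median of 52.7% over 32817 windows. Windows could be matched for 32 of the 39 members. Of these, 20 (62.5%) held GGGCGG, 11 (34.4%) CCAAT and 5 (15.6%) TATAAA, against 35.6%, 37.4% and 13.6% of all windows. These matches describe letters in a window and were not tested for binding or function.

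The 9 libraries held 2571 to 28480 barcodes and 26620760 to 500559729 UMIs each. Cells with more than 2500 genes were kept, 52432 in all, and 44654 remained after removal of doublets. The kept cells had median depths of 18179 to 49873 UMIs per library, and no more than 28 barcodes were shared by any of the 36 pairs of libraries. The E1C8Δ/Δ libraries were the shallowest, at 27721, 18179 and 25695 UMIs, against 31755 to 49873 UMIs in all Wt and E1C5Δ/Δ libraries. Depth per cell thus cannot be fully separated from E1C8Δ/Δ. Beyond thinning of cells to an equal depth, its part in the results was not tested. Cell types were gated on 8 marker genes each, with no collagen among them, which gave 35318 mesenchymal, 2115 erythroid, 1796 muscle, 569 endothelial, 534 ectodermal and 168 myeloid cells, while 4147 cells were left unassigned. UMIs were summed per library and type where a library held at least 20 such cells, and are given in CPM, UMIs relative to library totals scaled by the TMM method. E1C8Δ/Δ replicate 1, the library with the fewest cells and UMIs, reached 20 cells for mesenchyme alone. Tests are edgeR quasi-likelihood tests with Benjamini-Hochberg adjustment over all features tested, and a call is an adjusted p below 0.05. By *Xist* and Y-linked genes all 3 Wt embryos were male, whereas 2 of 3 in each mutant were female, and sex thus cannot be fully separated from genotype. Wt replicate 1 had *Xist* at 21.0 CPM, against 0.0704 and 0.0793 CPM in the other Wt libraries, beside Y-linked levels of 153, 137 and 135 CPM. E1C8Δ/Δ replicate 3, called male, had *Xist* at 7.61 CPM, and E1C8Δ/Δ replicate 1, called female, had Y-linked genes at 3.26 CPM. The source of these levels and their part in the results were not tested. Each library is labelled as a pair of forelimbs, and the spread between libraries is taken as that between embryos.

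The markers of each gate had their highest sums in their own type. The muscle markers were also seen in endothelium (197 to 340 CPM) and in myeloid cells (131 to 206 CPM), against 1164 to 1428 CPM in muscle, with *Pax7* at 0 in both, and their part in the collagen levels of these types was not tested. The 8 mesenchymal markers summed to 1850 to 2261 CPM in mesenchyme, and the median marker had 4.40% of its mesenchymal level in muscle, 4.71% in ectoderm, 3.97% in endothelium, 8.79% in erythroid and 4.27% in myeloid cells. In the other direction, the endothelial markers summed to 3946 to 4564 CPM in endothelium and to 2.86 to 7.99 CPM in mesenchyme. Among the 22 members with more than 1000 mesenchymal UMIs, the median level relative to mesenchyme was 42.2% in muscle, 36.3% in ectoderm, 14.9% in endothelium, 13.1% in erythroid and 5.17% in myeloid cells. In erythroid and myeloid cells most collagens were thus at or near the level of the mesenchymal markers, and their part in these values from free RNA was not tested.

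All 39 members had a UMI in mesenchyme, 37 in muscle, 34 in ectoderm, 29 in endothelium, 31 in erythroid and 24 in myeloid cells. More than 3 UMIs in some library were reached by 37, 28, 25, 17, 19 and 11 members, respectively. *Col4a3*, *Col6a4*, *Col10a1* and *Col6a5* had 3, 4, 13 and 14 UMIs in all mesenchymal cells together and at most 2 UMIs in any other type. The summed level of the members was highest in endothelium, at 2286 to 2944 CPM (median 2511, n = 7 libraries), well above mesenchyme at 752 to 1095 CPM (median 904, n = 9) with no overlap. Ectoderm had 764 to 950 CPM (n = 6), within the range of mesenchyme. Muscle had 426 to 557 CPM (n = 8), erythroid cells 121 to 265 CPM (n = 7) and myeloid cells 22.4 to 63.3 CPM (n = 4), each below every library of mesenchyme.

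The make-up of these sums differed among types. In mesenchyme *Col3a1* gave 24.0% and *Col1a2* 21.7% of the collagen UMIs, followed by *Col4a1* (10.3%), *Col26a1* (10.2%) and *Col1a1* (6.56%), so that fibrillar chains led. In endothelium *Col4a1* (45.3%), *Col4a2* (21.8%), *Col18a1* (18.2%) and *Col15a1* (9.56%), all genes of basement membrane collagens, made up nearly the whole. Ectoderm was led by *Col18a1* (41.8%), *Col4a2* (16.6%) and *Col4a1* (15.4%), and muscle by *Col26a1* (22.4%), *Col4a1* (20.0%) and *Col18a1* (13.6%).

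**Figure D1:**
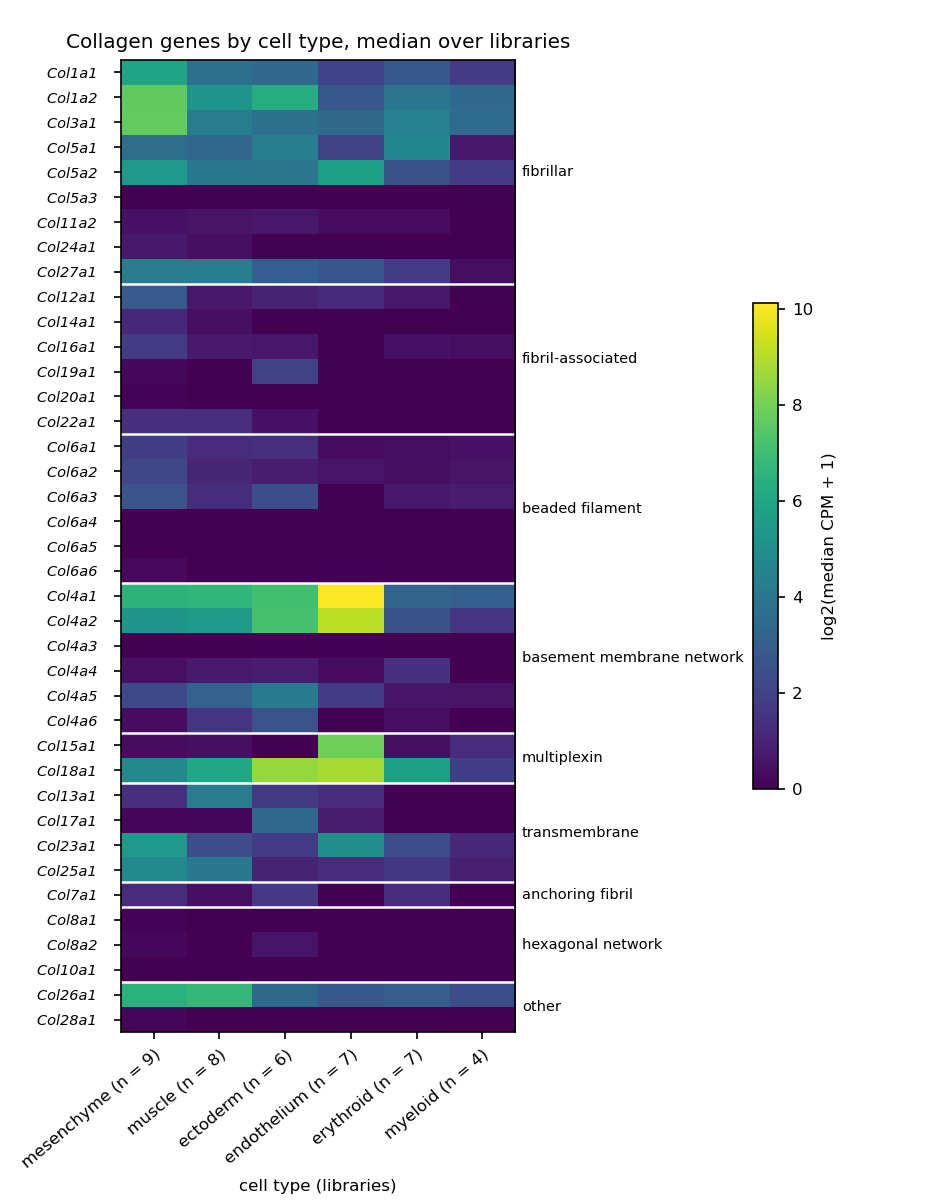
Median level over libraries of the collagen genes in each cell type, as the log2 of the median CPM plus 1 (colour), with genes in rows by class and cell types in columns with their number of libraries. *Col4a1*, *Col4a2*, *Col15a1* and *Col18a1* are brightest in endothelium, *Col1a2* and *Col3a1* in mesenchyme, and *Col13a1* stands out in muscle at a median of 18.1 CPM.

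Against mesenchyme of the same libraries, 21 of the 39 members passed the filter on low counts, which asked for at least 2.19 CPM of the library total in 4 of the 41 sums. Of the 21, *Col15a1* passed through endothelium alone, *Col17a1* and *Col19a1* through ectoderm alone, and *Col12a1*, *Col16a1*, *Col6a1* and *Col6a2* through mesenchyme alone. A gene that passed through a single type had to be high there, so that for these 7 a call against or in favour of that type is no independent result. In endothelium 6 of them were higher and 13 lower, where 34.5% and 36.7% of 12851 features were called, and the median log2 fold change was -2.45 for the members against -0.04 over all features. In ectoderm 6 were higher and 12 lower (features: 26.2% and 27.1%), with medians of -1.07 and -0.04. In muscle 3 were higher and 12 lower (features: 19.5% and 21.5%), with medians of -1.05 and -0.02. Erythroid cells had 2 higher and 17 lower (features: 37.4% and 42.8%) and myeloid cells 1 higher and 18 lower (features: 32% and 35.3%). Without the 7, the other 14 had 4 higher and 9 lower in endothelium, 4 and 8 in ectoderm, 3 and 8 in muscle, 2 and 12 in erythroid and 0 and 14 in myeloid cells. All these counts and medians describe the members that passed, not all 39.

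The basement membrane collagens set endothelium apart. *Col15a1* encodes a multiplexin with a restin domain at the outer face of basement membranes. Its level in endothelium was 322 and 281 CPM in Wt replicates 1 and 2, 183, 272 and 238 CPM in E1C5Δ/Δ replicates 1 to 3, and 190 and 215 CPM in E1C8Δ/Δ replicates 2 and 3, on 5012 UMIs. In mesenchyme it lay between 0.171 and 0.558 CPM. Every endothelial library was thus far above all mesenchymal ones, by 9.51 ± 0.14 on the log2 scale (SE), given without a test because the gene passed the filter through endothelium alone. With cells thinned to 10000 UMIs, a mean of 78.6% of endothelial cells had a *Col15a1* UMI and 0.39% of mesenchymal cells did (89.4% and 1.07% on all UMIs). In ectoderm, muscle and erythroid cells, the mean shares after thinning were between 0.28% and 0.50%. Thinning left out shallower cells, 76 of endothelium, 74 of ectoderm, 29 of muscle and 1820 of mesenchyme.

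*Col18a1*, the second multiplexin, whose C-terminal fragment is endostatin, was shared by endothelium and ectoderm. It had 406 to 541 CPM in endothelium (median 451), 277 to 430 CPM in ectoderm (median 371), 55.2 to 75.0 CPM in muscle (median 65.2) and 22.01 to 30.1 CPM in mesenchyme (median 26.1). The ranges of endothelium and ectoderm overlapped, while muscle lay between them and mesenchyme, with no overlap. The log2 fold changes against mesenchyme were 4.12 ± 0.09 in endothelium (edgeR adjusted p = 1.08e-33), 3.75 ± 0.09 in ectoderm (3.83e-31) and 1.29 ± 0.08 in muscle (4.52e-17).

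*Col4a1* and *Col4a2* encode the chains that make up collagen IV in most basement membranes. *Col4a1* had 1396 and 1116 CPM in endothelium of Wt replicates 1 and 2, 1156, 1006 and 1114 CPM in E1C5Δ/Δ and 1183 and 1062 CPM in E1C8Δ/Δ replicates 2 and 3, against 62.8 to 113 CPM in mesenchyme, 71.7 to 120 CPM in muscle and 113 to 152 CPM in ectoderm. Endothelium stood alone, muscle overlapped mesenchyme and ectoderm, and erythroid (5.88 to 15.4 CPM) and myeloid cells (0.860 to 9.74 CPM) lay below them all. *Col4a2* had 456 to 667 CPM in endothelium (median 551), 107 to 175 CPM in ectoderm (median 145), 26.8 to 54.9 CPM in muscle (median 43.2) and 22.9 to 42.5 CPM in mesenchyme (median 38.0), so that ectoderm was clear of mesenchyme as well. The log2 fold change in endothelium was 3.63 ± 0.11 for *Col4a1* (edgeR adjusted p = 3.39e-29) and 3.94 ± 0.09 for *Col4a2* (3.65e-33). In ectoderm it was 0.53 ± 0.11 for *Col4a1* (0.000111) and 1.99 ± 0.09 for *Col4a2* (1.43e-21), and in muscle neither was among the 3 members called higher. The median of *Col4a2* was above that of *Col4a1* in ectoderm, 145 against 131 CPM, and below it in the other 5 types.

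The X-linked *Col4a5* and *Col4a6*, chains of another collagen IV network, lie head to head 1309 bases apart and were tested in a fit that held the X and Y chromosomes. *Col4a5* had 14.1 to 23.6 CPM in ectoderm, 5.57 to 12.98 CPM in muscle and 3.21 to 4.29 CPM in mesenchyme, with no overlap of either type with mesenchyme. *Col4a6* had 3.01 to 7.85 CPM in ectoderm, 1.17 to 3.83 CPM in muscle and 0.146 to 0.544 CPM in mesenchyme and no UMI in endothelium. *Col4a5* was higher in ectoderm by 2.12 on the log2 scale (edgeR adjusted p = 6.06e-14), where *Col4a6*, which passed the filter through ectoderm alone, had a value of 4.25 without a test. Both were higher in muscle, by 1.09 (9.35e-09) and 3.02 (1.57e-12). Of the third pair, *Col4a3* was barely detected, and *Col4a4* had 0.259 to 0.605 CPM in mesenchyme on 435 UMIs and 0.370 to 3.16 CPM in erythroid cells on 39 UMIs.

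Some transmembrane and fibril-associated collagens had their highest level by far in ectoderm or muscle. *Col17a1*, the hemidesmosome collagen of epithelia, had 10.9, 13.9, 5.23, 8.03, 6.44 and 10.9 CPM in ectoderm of Wt replicates 1 and 2, E1C5Δ/Δ replicates 1 and 3 and E1C8Δ/Δ replicates 2 and 3, on 117 UMIs, against 0.0267 to 0.148 CPM in mesenchyme. All 6 libraries were above all 9 of mesenchyme, with a log2 fold change of 6.47 ± 0.33, again without a test since the gene passed through ectoderm alone. *Col19a1*, a fibril-associated collagen, rested on 38 ectodermal UMIs, with 0.433 CPM in Wt replicate 2 and 1.36 to 6.24 CPM in the others, with a log2 value of 3.79 ± 0.48 and the same limit. Its mesenchymal range of 0.0973 to 0.405 CPM came close to the lowest of these. *Col13a1*, a transmembrane collagen of the neuromuscular junction, had 17.7, 20.1 and 11.01 CPM in muscle of Wt, 23.4, 18.6 and 22.4 CPM in E1C5Δ/Δ and 16.3 and 15.98 CPM in E1C8Δ/Δ, against 1.18 to 2.44 CPM in mesenchyme. Muscle was higher in every library, by 3.52 ± 0.15 on the log2 scale (edgeR adjusted p = 2.78e-21). Without the muscle sums the gene still reached the filter, though on no more than the 4 sums needed, 3 of ectoderm and 1 of mesenchyme. After thinning, a mean of 13.5% of muscle cells had a *Col13a1* UMI and 1.27% of mesenchymal cells did (40.3% and 4.53% on all UMIs).

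**Figure D2:**
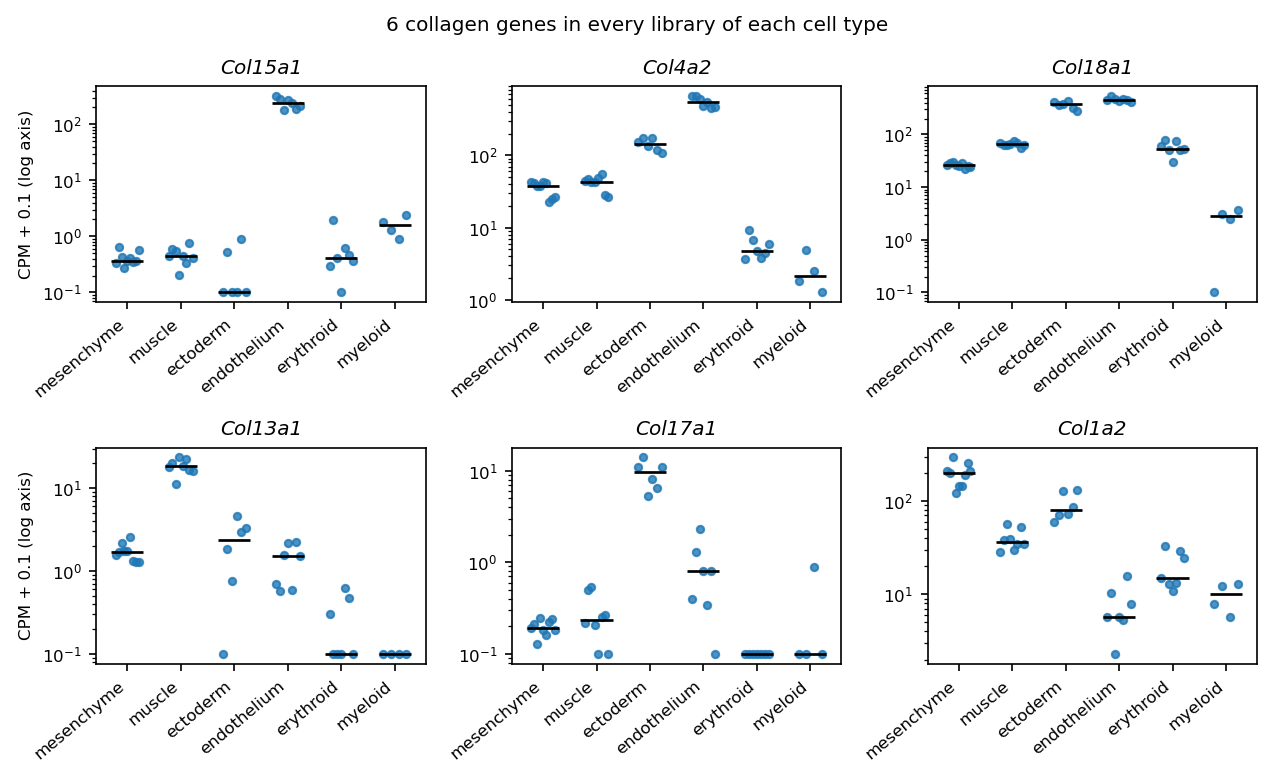
Level of 6 collagen genes in every library of each cell type, as CPM plus 0.1 on a log axis, 1 point per library and 1 panel per gene. In endothelium *Col15a1* sits between 183 and 322 CPM, above all libraries of all other types, and *Col13a1* in muscle between 11.01 and 23.4 CPM.

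*Col17a1* was also called higher in endothelium, by 2.63 ± 0.58 (edgeR adjusted p = 0.000154), but on 13 UMIs, of which 5 came from Wt replicate 2. Under a stricter gate for cell types the value was -4.65, so that its direction depended on which cells were admitted. *Col26a1*, named for an EMI domain and expressed at 92.4 to 152 CPM in muscle and 75.5 to 118 CPM in mesenchyme, was called higher in muscle by 0.26 ± 0.08 (0.0106), with overlapping ranges, and lost the call under 7 alternatives, among them those that leave out Wt replicate 3 or any library of E1C5Δ/Δ. *Col5a2*, a fibrillar chain, was higher in endothelium by 0.28 (0.0246), with 38.3 to 73.4 CPM against 38.5 to 59.9 CPM in mesenchyme.

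The most abundant fibrillar chains, those of collagens I and III, were highest in mesenchyme. *Col3a1*, a fibrillar chain of soft tissues and vessel walls, had 177 to 251 CPM in mesenchyme (median 207), 7.36 to 27.5 CPM in muscle (median 18.0), 3.64 to 30.2 CPM in ectoderm (median 11.8) and 2.99 to 18.7 CPM in endothelium (median 10.3). The non-mesenchymal types overlapped among themselves, and none reached the mesenchyme. *Col1a1* and *Col1a2*, which encode the chains of collagen I, had medians of 58.8 and 200 CPM in mesenchyme and 3.09 and 5.69 CPM in endothelium. Among the largest falls were *Col3a1* with a log2 fold change of -4.62 and *Col1a2* with -4.57 in endothelium, and *Col3a1* with -3.55 in muscle and -4.00 in ectoderm. In endothelium *Col6a3*, a chain of collagen VI, had 2 UMIs, a ratio to mesenchyme of 0.0231 (95% counting interval 0.00279 to 0.0834).

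The chains of collagen I did not move together in ectoderm. *Col1a2* had 59.8 to 131 CPM there (median 79.2), 48.1% of its mesenchymal level, while *Col1a1* had 4.16 to 12.9 CPM, 16.4%, and *Col3a1* 6.401%. The mesenchymal markers in ectoderm were at 3.67% to 18.5%, the highest of them *Pdgfra*, so that *Col1a2* exceeded them all. After thinning, *Col1a2* was seen in a mean of 37.4% of ectodermal and 6.50% of endothelial cells (55.7% and 19.4% on all UMIs). *Col5a1*, the chain of collagen V that starts fibrils, was higher in ectoderm than in mesenchyme, with 16.5 to 24.2 CPM against 10.9 to 15.8 CPM, by 0.59 ± 0.12 on the log2 scale (edgeR adjusted p = 0.000116). In muscle its log2 fold change was -0.47. *Col27a1*, another fibrillar chain, had 13.5 to 21.97 CPM in mesenchyme and 13.3 to 25.3 CPM in muscle, without a call (log2 0.03, adjusted p = 0.874).

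Transmembrane *Col23a1* and *Col25a1*, and *Col12a1*, a fibril-associated collagen of tendon and ligament, were low in muscle, in ectoderm or in both. *Col23a1* had 36.1 to 54.5 CPM in mesenchyme and 19.4 to 41.9 CPM in endothelium, and 1.04 to 6.71 CPM in muscle and ectoderm. The log2 fold changes were -4.21 in ectoderm and -3.34 in muscle. *Col25a1*, needed by motor axons for entry into muscle, had 22.1 to 31.8 CPM in mesenchyme and 8.41 to 18.5 CPM in muscle, a change of -0.97, and -4.16 in ectoderm. *Col12a1* had 4.35 to 8.19 CPM in mesenchyme and 0.305 to 1.68 CPM in muscle, a log2 value of -3.17 without a test, since it passed the filter through mesenchyme alone.

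In erythroid cells, *Col18a1* (29.5 to 77.4 CPM) and *Col5a1* (16.5 to 28.6 CPM) were called higher than in mesenchyme by 1.12 and 0.92 on the log2 scale (edgeR adjusted p = 4.75e-14 and 2.77e-10), but both directions reversed, to -0.34 and -0.56, when sums were scaled by library totals in place of TMM. Their levels were 216% and 189% of those in mesenchyme, whereas *Col1a1*, *Col3a1*, *Col1a2* and *Col4a1* were at 11.99%, 11.3%, 10.68% and 11.5%, close to the mesenchymal markers (7.602% to 11.3%). Of the next values, *Col16a1*, *Col6a3* and *Col6a2*, the first and last of which passed through mesenchyme alone, had log2 values of -2.54, -2.73 and -2.83, and *Col3a1* and *Col25a1* of -3.32 and -3.99. *Col19a1* had no UMI, at least 1.59-fold lower than in mesenchyme by the floor of 3 counts over all libraries. In myeloid cells *Col15a1* was called higher, by 2.05 ± 0.79 (0.0212), on 7 UMIs in 4 libraries. *Col6a1* (3 UMIs), *Col16a1* (2), *Col6a3* (3) and *Col6a2* (2) had the smallest falls, with a ratio of 0.203 (0.0419 to 0.595) for *Col6a1*. *Col27a1* (2 UMIs) and *Col25a1* (3 UMIs) had ratios of 0.0210 (0.00254 to 0.0759) and 0.0217 (0.00448 to 0.0635), and *Col13a1* had none, at least 2.44-fold lower. All 8 myeloid UMIs of *Col14a1* came from E1C5Δ/Δ replicate 1.

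The genes that act on collagens were counted from fixed lists, and the counts are to be read against the shares of all 12851 features that were called higher and lower, which were 34.5% and 36.7% in endothelium, 26.2% and 27.1% in ectoderm, 19.5% and 21.5% in muscle, 37.4% and 42.8% in erythroid and 32% and 35.3% in myeloid cells. Several of the counts lay near these shares. Of 13 tested partners of collagen in basement membranes, 10 were higher and 2 lower in endothelium, with a median log2 fold change of 2.21, *Hspg2* (perlecan) and *Lama4* leading and the laminin chains *Lama2* and *Lama1* lowest. In ectoderm 8 were higher, among them *Lama5*, and 4 lower, led by the nidogens *Nid1* and *Nid2* (median 1.81). Muscle had 4 higher and 2 lower, erythroid cells 0 and 10, and myeloid cells 1 and 9. Of 15 enzymes of collagen biosynthesis, 10 were higher and 4 lower in endothelium, 6 and 4 in muscle, 5 and 5 in ectoderm, 1 and 11 in erythroid and 6 and 5 in myeloid cells. Of 9 genes of folding and export, 7 and 1 were called in endothelium, 2 and 1 in muscle, 2 and 3 in ectoderm, 2 and 5 in erythroid and 3 and 5 in myeloid cells. Of 9 receptors, 5 were higher in endothelium, led by the integrin chains *Itga2* and *Itga1*, and 3 lower, led by *Ddr1* and *Ddr2*. Counts for receptors were 0 and 5 in muscle, 5 and 3 in ectoderm, 1 and 5 in erythroid and 3 and 4 in myeloid cells. Of 7 genes that process and crosslink procollagen, 1 was higher and 5 lower in endothelium, 1 and 3 in muscle, 1 and 4 in ectoderm, 0 and 7 in erythroid and 0 and 6 in myeloid cells.

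Neighbouring collagen genes differed in how closely they tracked each other. Over 41 sums of library and type, which share libraries, the log levels of *Col4a1* and *Col4a2* had a Pearson correlation of 0.97. It was 0.91 over 99 sums of library and position and 0.95 over the 9 mesenchymal sums. For *Col4a5* and *Col4a6* the values were 0.84, 0.05 and 0.19, for *Col6a1* and *Col6a2*, 85162 bases apart, 0.72, 0.27 and 0.55, and for *Col3a1* and *Col5a2*, 24615 bases apart, 0.41, 0.25 and -0.15. *Col4a6* had only 9 to 94 UMIs per library in mesenchyme, spread over the positions. Its values of 0.05 and 0.19 thus cannot tell loose tracking from few counts. Among genes that are not neighbours, *Col25a1* and *Col26a1* were alike over types (0.93), as were *Col1a2* and *Col6a3* (0.92) and *Col3a1* and *Col1a1* (0.90). Over positions *Col5a1* was most like *Col23a1* (0.82) and *Col3a1* most like *Col1a1* (0.81), and *Col4a1* was least like *Col1a1* (-0.78).

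Within mesenchyme, each cell was placed in the position whose signature genes it expressed most, with collagens left out of the signatures. The positions are the chondrogenic C1 to C3, the proximal M1 and M2, M3 with genes of the ventral and dorsal mesenchyme, the more distal M4, and the *Msx1*-positive P1 (anterior-proximal), P2 (posterior), P3 (anterior) and P4 (autopodial). The study chose these signatures on these libraries, so that they are not independent of them, and 15.4% of mesenchymal cells, 5454, were within a score of 0.1 of a second position. Each position was tested against the mean of the other 10, and 23 of 39 members passed the filter. Of the 253 pairs of member and position, 97 were higher and 83 lower, where 25.5% and 23.7% of all pairs of feature and position were called. The members are thus called more often than features at large, without a test of that difference.

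Fibrillar chains were high in C2, C3 and P1 and low in M4 and P4. Of 7 fibrillar members tested, all 7 were higher in P1 (features: 19.6%) and all 7 lower in P4 (features: 31.9%). In C2 and in C3, 6 were higher with none lower (features higher: 33.7% and 25.3%), and 6 were lower in M4 with none higher (features lower: 29%). In C1 the members were split, with *Col1a2*, *Col1a1* and *Col5a1* higher, *Col5a2* lower (-0.13) and 3 without a call. *Col1a1* had 70.0 to 159 CPM in C2 (median 106) and 11.2 to 40.1 CPM in P4 (median 16.9), with no overlap. Its log2 fold change against the other positions was 1.17 in C2 (edgeR adjusted p = 8.09e-34) and -1.71 in P4. *Col1a2* was high in C2 as well, at 211 to 453 CPM (median 346, log2 1.12), but lowest in P2, at 17.2 to 80.6 CPM (median 41.7, log2 -2.34). In C1, *Col1a2* (0.62) and *Col12a1* (0.48) led the members.

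*Col3a1* had 267 to 412 CPM in M2 (median 317) and 49.5 to 99.7 CPM in P4 (median 72.0, log2 -1.62). *Col5a1* had its highest levels in C3, at 17.8 to 31.0 CPM (median 23.9, log2 1.15). Both genes were called lower in M4, P3 and P4. Over all 23 members, 14 were higher and 6 lower in C2, where 33.7% and 32.3% of features were called. C3 had 14 and 7 (features: 25.3% and 28%) and P1 had 14 and 3 (features: 19.6% and 16.4%). On the other side, M4 had 5 and 12 (features: 30.2% and 29%) and P4 had 5 and 14 (features: 30.9% and 31.9%). In C1 the counts were 6 and 10 (features: 29% and 26.8%), the first of them near the share of features.

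**Figure D3:**
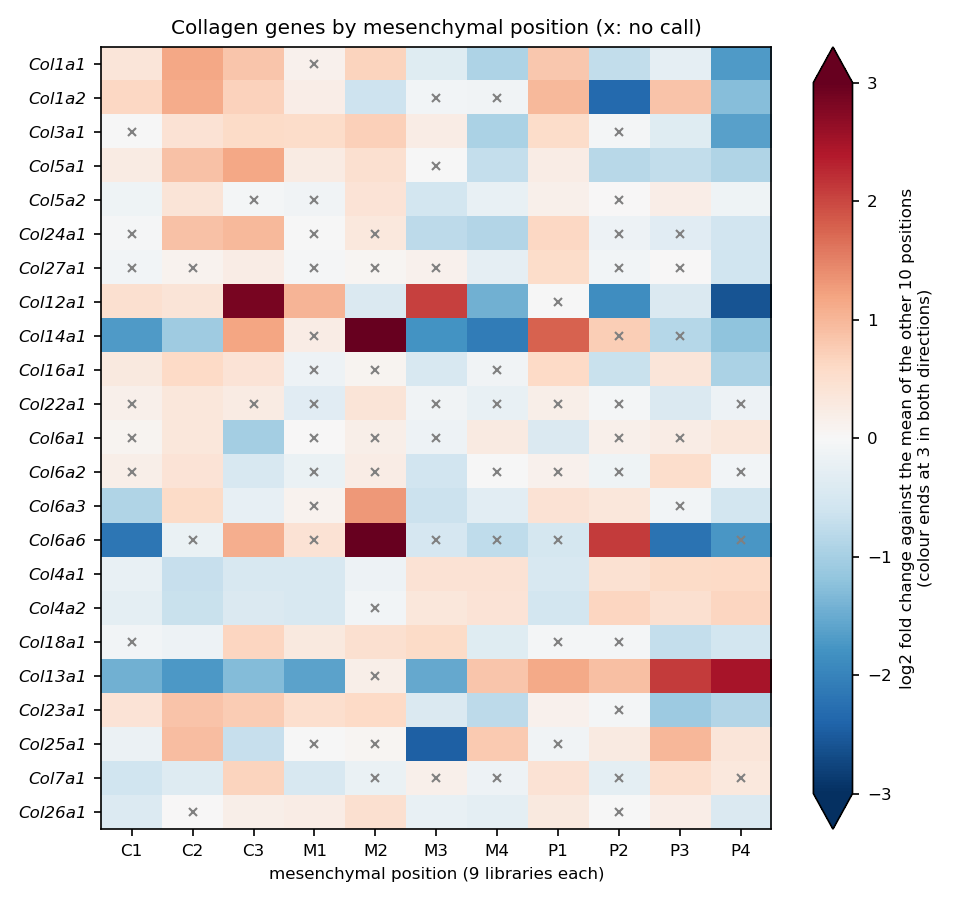
Log2 fold change of each tested collagen gene in each mesenchymal position against the mean of the other 10 positions, with the colour ending at 3 in both directions and a cross where there was no call. The 7 fibrillar genes are positive in P1 and negative in P4, whereas *Col4a1* and *Col4a2* are negative in C1 to C3 and positive in M3, M4 and P2 to P4.

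Collagen IV ran the other way. *Col4a1* was lower in C1, C2, C3, M1, M2 and P1 and higher in M3, M4, P2, P3 and P4, and *Col4a2* had the same calls except in M2, where it had none. *Col4a1* had 44.7 to 64.3 CPM in C2 (median 55.4) and 68.7 to 147 CPM in P3 (median 126), without overlap. *Col4a2* had 12.6 to 26.9 CPM in C2 (median 23.6) and 32.8 to 63.6 CPM in P2 (median 55.6). Its log2 fold change was 0.64 in P2 and in P4.

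*Col12a1*, *Col14a1* and *Col6a6* had the largest log2 fold changes by position among the members. *Col12a1* led in C3, with 18.0 to 39.3 CPM (median 25.4), in M3, with 11.1 to 19.8 CPM (median 16.4), and in M1, and had 0.176 to 1.67 CPM in P4. Its log2 fold changes were 2.84 ± 0.09 in C3 (edgeR adjusted p = 2.71e-50), 2.05 in M3 (1.84e-35) and 1.01 in M1. Among the members called higher, *Col3a1* came second in M1, at 0.54, and *Col18a1* in M3, at 0.57. *Col14a1*, a fibril-associated collagen of tendon and skin, belonged to M2, where it had 4.60 to 12.2 CPM (median 10.2) and 930 of its 1357 UMIs over positions, a log2 fold change of 4.84 ± 0.16 (4.4e-47). It passed the filter without the M2 sums as well, on 15 other sums where 9 were needed. It was also called in P1 (1.76) and C3 (1.19, 0.000729), where Wt replicate 3 had 11.9 CPM and all other libraries at most 2.00 CPM. Without Wt replicate 3 the value in C3 was 1.00, still called, and after thinning it was 0.21, without a call.

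*Col6a6*, a chain of collagen VI, shared the M2 pattern on fewer counts, with 179 of 276 UMIs there, 0 to 3.45 CPM (median 1.44) and a log2 value of 4.53 ± 0.23. No test is given, as 8 of the 9 sums by which it passed the filter were of M2. Its value in P2 was 2.10 (edgeR adjusted p = 3.79e-06). *Col6a3* was highest in M2, at 5.79 to 13.2 CPM (median 9.65, log2 1.29). *Col13a1* marked the *Msx1*-positive positions, with 2.38 to 6.46 CPM in P4 (median 5.30, log2 2.46, 2.57e-24), 1.64 to 6.91 CPM in P3 (median 3.65, log2 2.10, 6.07e-23) and 0 to 0.637 CPM in C2 (median 0.253). P1 (1.14), P2 (0.89) and M4 (0.83) were called as well. In P1 Wt replicate 3 had 11.1 CPM and all other libraries at most 2.54 CPM, and without it the value was 0.87, still called. *Col25a1* was high in P3, at 22.1 to 56.4 CPM (median 45.2, log2 1.00), in the chondrogenic C2 (0.94) and in M4 (0.79). Smaller rises were called in P4 (0.37) and P2 (0.28). It was low in M3, at 3.74 to 7.57 CPM (median 5.08, log2 -2.45), and called lower in C3 (-0.68) and C1 (-0.19).

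Set together, the chondrogenic positions C1 to C3 against the other 8 had 12 members higher and 7 lower of 23, where 39% and 36.1% of 12911 features were called, with median log2 fold changes of 0.08 for the members and 0.01 for all features. All 7 fibrillar members were higher, among them *Col1a2* by 1.01, *Col1a1* by 0.99, *Col5a1* by 0.95 and *Col3a1* by 0.41, down to *Col27a1* by 0.10 and *Col5a2* by 0.08, while *Col12a1* led with 1.55. *Col13a1* (-1.86), *Col14a1* (-0.66), *Col4a1* and *Col4a2* (both -0.58) were lower. The cartilage collagens that the rule left out had log2 fold changes of 2.90 for *Col9a2*, 2.74 for *Col2a1*, 2.40 for *Col9a3*, 1.89 for *Col9a1* and 0.58 for *Col11a1*. On the side of the enzymes, 7 of 10 genes that process and crosslink procollagen were higher in C1 to C3, led by *Loxl1* and *Loxl3*, and 1 was lower (*Pcolce2*). Of folding and export 6 of 10 were higher and 3 lower, of biosynthesis 5 and 5 of 14, of receptors 5 and 2 of 8, and of basement membrane partners 6 and 5 of 11.

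The next comparison asked whether loss of *Grem1* enhancers changed the collagens of the mesenchyme. *Grem1* itself had 43.3, 31.98 and 33.95 CPM in Wt, 10.6, 11.3 and 15.3 CPM in E1C8Δ/Δ and 19.3, 17.9 and 25.6 CPM in E1C5Δ/Δ, below Wt in every mutant library. The log2 fold changes were -1.54 in E1C8Δ/Δ (edgeR adjusted p = 0.0019) and -0.80 in E1C5Δ/Δ (0.0451). Of the 39 members, 32 passed the filter. With both mutants set against Wt, 3 were lower and none higher, where 1.48% and 0.655% of 16179 features were called, and 2 were lower without *Col8a1*, which passed the filter through Wt alone. E1C8Δ/Δ had 3 lower and none higher (features: 5.74% and 3.45%), and E1C5Δ/Δ 3 lower and none higher (features: 1.09% and 0.352%). The median log2 fold change of the members was -0.17 in E1C8Δ/Δ and -0.20 in E1C5Δ/Δ, against -0.01 and 0.00 over all features. Both mutant contrasts share the Wt libraries.

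*Col4a2* fell in E1C8Δ/Δ and not in E1C5Δ/Δ. It had 42.5, 41.2 and 37.0 CPM in Wt (mean 40.3 ± 2.84, SD, n = 3), 22.6, 24.7 and 26.4 CPM in E1C8Δ/Δ (24.5 ± 1.92) and 38.3, 43.1 and 41.7 CPM in E1C5Δ/Δ (41.02 ± 2.42). All E1C8Δ/Δ libraries lay below all others, and Wt and E1C5Δ/Δ overlapped. The log2 fold change was -0.71 ± 0.09 in E1C8Δ/Δ (edgeR adjusted p = 0.00285) and 0.03 in E1C5Δ/Δ (0.947), and the mutants differed by -0.73 (0.0028). With embryo sex as a covariate the value in E1C8Δ/Δ was -0.63 (0.0399). The call in E1C8Δ/Δ was kept under every alternative run, thinning of cells to an equal depth among them. The mesenchymal cells of E1C8Δ/Δ were also the shallowest, with medians of 26950, 16124 and 22684 UMIs, against 29540 or more in every other library.

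*Col4a1*, its partner chain, had 113, 92.0 and 93.8 CPM in Wt, 62.0, 75.3 and 72.1 CPM in E1C8Δ/Δ and 89.6, 111 and 106 CPM in E1C5Δ/Δ. The pattern over genotypes was that of *Col4a2*, with all E1C8Δ/Δ libraries below the rest. The log2 fold change in E1C8Δ/Δ was -0.51 ± 0.12 (edgeR adjusted p = 0.0236), and the mutants differed by -0.55 (0.017). The call in E1C8Δ/Δ was lost without Wt replicate 1 (-0.41), without any E1C8Δ/Δ library (-0.55 to -0.43) with a replicate block (-0.52) and with embryo sex as a covariate (-0.43). The endothelial markers, the type with the most collagen IV, summed in mesenchyme to 2.86, 6.51 and 4.66 CPM in Wt, 5.85, 4.94 and 7.91 CPM in E1C8Δ/Δ and 3.62, 3.73 and 3.77 CPM in E1C5Δ/Δ, and their part in the result was not tested. Taken position by position, the mean of *Col4a1* and that of *Col4a2* in E1C8Δ/Δ were below Wt in 11 of 11 mesenchymal positions. The positions divide the same mesenchymal UMIs, so that this is no independent result.

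*Col5a1* was the member that fell in both mutants. It had 15.7, 15.8 and 14.7 CPM in Wt (mean 15.4 ± 0.626), 10.803, 11.2 and 10.767 CPM in E1C8Δ/Δ (10.9 ± 0.222) and 11.5, 11.2 and 12.5 CPM in E1C5Δ/Δ (11.7 ± 0.677). Every mutant library was below every Wt library. The log2 fold changes were -0.45 ± 0.07 for both mutants (edgeR adjusted p = 0.0155), -0.50 ± 0.09 in E1C8Δ/Δ (0.00916) and -0.40 ± 0.09 in E1C5Δ/Δ (0.0468). The call for both mutants was lost without Wt replicate 1 (-0.44) or Wt replicate 2 (-0.43), after thinning (-0.40), with a replicate block (-0.45) and with embryo sex as a covariate (-0.49). That in E1C5Δ/Δ was lost without any library but E1C5Δ/Δ replicate 3 (-0.43 to -0.37) and under 7 of the other alternatives (-0.45 to -0.36). The call in E1C8Δ/Δ was lost after thinning (-0.43) and with embryo sex as a covariate (-0.54). Since all Wt embryos were male, sex and genotype cannot be fully told apart here.

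*Col1a2* and *Col6a3* fell in E1C5Δ/Δ. *Col1a2* had 208, 201 and 292 CPM in Wt, 186, 251 and 208 CPM in E1C8Δ/Δ and 123, 149 and 146 CPM in E1C5Δ/Δ, where all 3 libraries lay below all others. *Col6a3* had 5.47, 5.35 and 6.09 CPM in Wt, 5.37, 5.01 and 4.18 CPM in E1C8Δ/Δ and 3.01, 3.95 and 3.19 CPM in E1C5Δ/Δ, again with E1C5Δ/Δ lowest. The log2 fold changes in E1C5Δ/Δ were -0.75 ± 0.16 for *Col1a2* (edgeR adjusted p = 0.0406) and -0.74 ± 0.15 for *Col6a3* (0.0314). The mutants differed by 0.63 (edgeR adjusted p = 0.0298) and 0.51 (0.0488), respectively. For *Col6a3* this call was lost with RLE or library totals in place of TMM and without a filter. It was also lost with cells over 1000 genes, after thinning, with a replicate block and with embryo sex as a covariate (0.50 to 0.60 in all). The call of *Col1a2* in E1C5Δ/Δ was kept without Wt replicate 1, Wt replicate 2 or E1C8Δ/Δ replicate 2 and lost without any of the other 6 libraries (-0.80 to -0.56). That of *Col6a3* was kept without E1C5Δ/Δ replicate 2, E1C8Δ/Δ replicate 1 or E1C8Δ/Δ replicate 3 and lost without any of the other 6 (-0.78 to -0.66), and both were lost with embryo sex as a covariate (-0.72 for each) and with a replicate block (-0.75 and -0.74). Of the cartilage collagens, *Col2a1* and *Col9a2* had log2 fold changes of -1.04 (0.021) and -2.24 (0.0325) in E1C5Δ/Δ.

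*Col8a1*, a short-chain collagen of hexagonal networks, was the third member called for both mutants, with a log2 value of -2.59 ± 0.58 on 123 UMIs. It passed the filter through Wt alone, so that this call is no independent result and its p is not given. It had 0.119, 0.234 and 0.583 CPM in Wt, 0, 0.0781 and 0.0161 CPM in E1C8Δ/Δ and 0.0392, 0.0825 and 0.0317 CPM in E1C5Δ/Δ. The mutant libraries all lay below Wt, but the call was lost when any library but Wt replicate 1 or E1C8Δ/Δ replicate 2 was left out (-2.75 to -2.03). Leaving *Col8a1* aside, *Col5a1* was the only member with all mutants below Wt, as had 3.57% of features, and no member had all mutants above Wt, as had 2.67% of features. *Col4a2* reached a call for both mutants together (-0.34 ± 0.08, edgeR adjusted p = 0.0461) through E1C8Δ/Δ, and lost it without any library but E1C5Δ/Δ replicate 3 (-0.40 to -0.30). The call was also lost with library totals in place of TMM, with cells over 1000 genes and after thinning. The same held with X and Y features tested, with a replicate block and with embryo sex as a covariate (-0.36 to -0.26 in all).

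**Figure D4:**
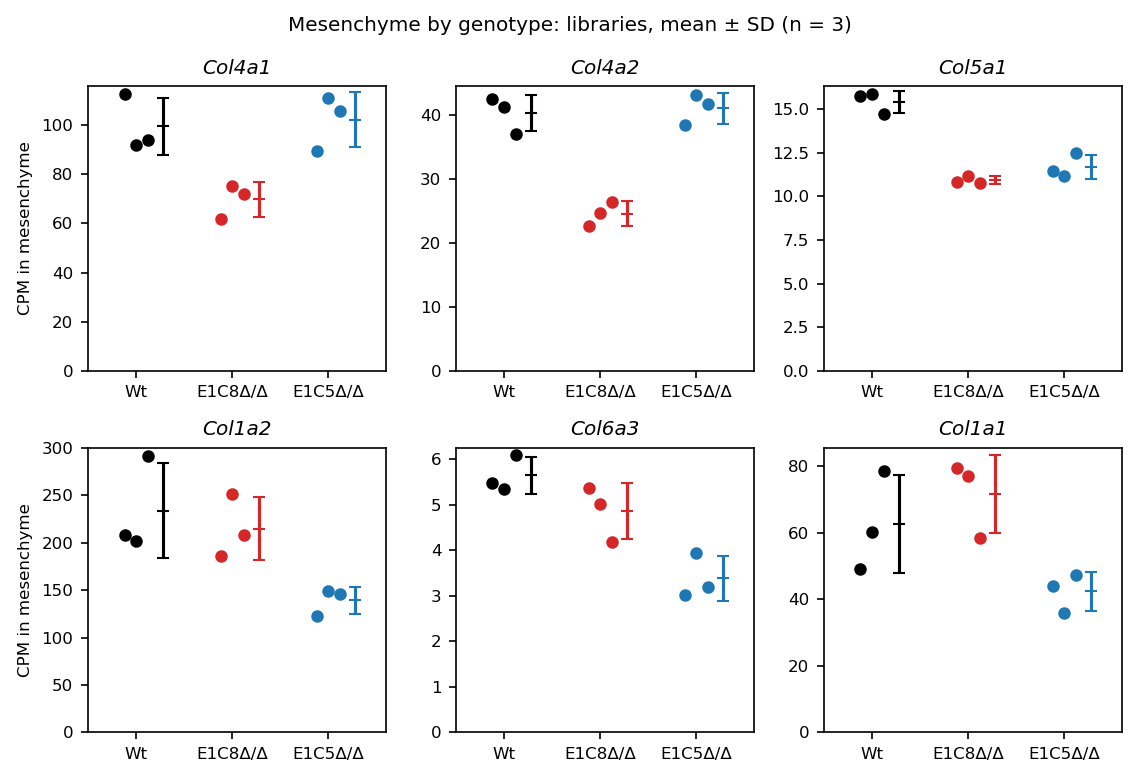
Level of collagen genes in the mesenchyme of each library by genotype, in CPM, with points for libraries and bars for mean ± SD (n = 3). *Col4a2* sits at 22.6 to 26.4 CPM in E1C8Δ/Δ and at 37.0 to 43.1 CPM in the other genotypes, and *Col5a1* lies lower in both mutants than in Wt.

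Set directly against each other, E1C8Δ/Δ and E1C5Δ/Δ differed in 7 of the 32 members, 5 higher and 2 lower in E1C8Δ/Δ, where 4.43% and 5.64% of features were called. Beside those above, *Col1a1* had 49.2, 60.1 and 78.5 CPM in Wt, 79.6, 77.0 and 58.3 CPM in E1C8Δ/Δ and 43.9, 35.9 and 47.4 CPM in E1C5Δ/Δ. *Col3a1* had 222, 247 and 242 CPM in E1C8Δ/Δ and 194, 180 and 185 CPM in E1C5Δ/Δ. *Col19a1* had 0.239 to 0.398 CPM in E1C8Δ/Δ and 0.0991 to 0.165 CPM in E1C5Δ/Δ. In all 3 the mutants did not overlap, but these genes were picked by a call on the same values. The share of all features without overlap between the mutants in mesenchyme was not counted, so that this adds no support. *Col19a1* rested on 4, 51 and 34 UMIs in E1C8Δ/Δ and 21, 6 and 38 UMIs in E1C5Δ/Δ replicates 1 to 3. The differences were 0.75 for *Col1a1* (edgeR adjusted p = 0.0227), 0.35 for *Col3a1* (0.0353) and 1.15 for *Col19a1* (0.0419). With embryo sex as a covariate 5 of the 7 were kept, *Col4a2*, *Col4a1*, *Col1a1*, *Col1a2* and *Col19a1*. All E1C8Δ/Δ libraries were shallower per cell than all E1C5Δ/Δ libraries, so that depth is not fully separated from these differences. The call of *Col19a1* was lost with DESeq2, without a filter, with cells over 1000 genes and without doublet removal. It was also lost under the stricter gate, after thinning and with a replicate block. The calls of *Col1a1* and *Col3a1* were lost with the block, and that of *Col3a1* also without a filter. The difference in *Col4a2* was kept without any single library, while each of the other 6 lost its call without 4 or more of the libraries. X-linked *Col4a5* and *Col4a6* had no call, with log2 values of -0.04 and 0.04 for both mutants (adjusted p = 0.91 and 0.964).

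Some partners of collagen in basement membranes were lower in E1C8Δ/Δ as well. Of 12 tested, 4 were lower, none was higher and 8 had no call, where 5.74% of features were lower and 3.45% higher in E1C8Δ/Δ. Those called were lower, *Lama1* by -0.88 (edgeR adjusted p = 0.00544), *Nid1* by -0.63 (0.0372), *Lamb1* by -0.58 (0.0127) and *Hspg2* by -0.48 (0.0174) on the log2 scale, with a median of -0.36 over the list. *Lama1*, a laminin chain of early basement membranes, had 5.06, 5.77 and 5.61 CPM in Wt, 2.81, 2.98 and 3.09 CPM in E1C8Δ/Δ and 4.78, 4.80 and 5.95 CPM in E1C5Δ/Δ. Its E1C8Δ/Δ libraries lay below all others, and in E1C5Δ/Δ none of the 12 was called. Against E1C5Δ/Δ, 4 of the 12 were lower in E1C8Δ/Δ, led by *Lama1* and *Nid1*. Of 10 genes of folding and export, 3 were lower in E1C8Δ/Δ, among them *Sec24d*, a coat protein of the vesicles that carry procollagen, by -1.07 (0.00637) and the transcription factor *Creb3l2* by -0.43 (0.0199). In E1C5Δ/Δ, 2 were lower, *Sec24d* by -0.80 (0.0373) and *Creb3l2* by -0.74 (0.00513). Both were also the only calls of this list for the mutants together, and against E1C5Δ/Δ *Fkbp10* was higher and *Mia3* lower in E1C8Δ/Δ. Of 15 biosynthetic enzymes *P4ha2*, a subunit of prolyl 4-hydroxylase, was higher in E1C8Δ/Δ by 0.34 (0.0389), of 9 receptors *Ddr2* was lower by -0.47 (0.0244), and of 11 genes of processing none was called. E1C5Δ/Δ had no call in these 3 lists. Single calls of 9 or 15 genes lie near the shares of all features, 5.74% lower and 3.45% higher in E1C8Δ/Δ, and the shares were 1.09% and 0.352% in E1C5Δ/Δ and 5.64% and 4.43% between the mutants. Unlike those of the members, the calls of these listed genes were not followed under the alternatives. Whether they hold with embryo sex as a covariate, after thinning or without single libraries is thus not known.

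Positions were then compared between genotypes, with 216 pairs of member and position tested for both mutants against Wt. There was 1 call, where 0.302% (higher) and 0.584% (lower) of all pairs of feature and position were called. This was *Col5a1* in C1, with 19.1 ± 0.0645 CPM in Wt, 11.7 ± 1.501 CPM in E1C8Δ/Δ and 10.715 ± 1.03 CPM in E1C5Δ/Δ (SD, n = 3 each), a log2 fold change of -0.73 ± 0.12 (edgeR adjusted p = 0.00605). At an unadjusted p below 0.05 there were 83 pairs of 216, against 14.3% of all pairs of feature and position. The fold change was negative in 182 of 216 pairs (84.3%), with a median of -0.27, against 50.9% and a median of -0.01 over all features. These pairs share libraries and are not independent, and with DESeq2 there were 9 calls. The call of *Col5a1* was lost after thinning and with embryo sex as a covariate, with 0 calls in each.

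The fall of *Col4a2* in E1C8Δ/Δ was seen in every position. The members followed here were chosen because they were called in the mesenchyme as a whole, against Wt or between the mutants. The positions divide the same UMIs of the same libraries, so that their counts give no independent support. E1C8Δ/Δ alone was not tested within a position. For *Col4a2*, all E1C8Δ/Δ libraries lay below all Wt libraries in 11 of 11 positions and below all E1C5Δ/Δ libraries in 11 of 11. E1C5Δ/Δ lay below Wt in none. Of all pairs of feature and position, 13.4% had all E1C8Δ/Δ libraries below Wt, 13.5% had them below E1C5Δ/Δ and 7.5% had E1C5Δ/Δ below Wt. In all 11 positions this held for 1.21%, 2.05% and 0.155% of the 12911 features, in the same order. The mean was 39.6 CPM in Wt and 20.0 CPM in E1C8Δ/Δ in M2, 54.5 and 34.3 CPM in P2, and 28.1 and 21.3 CPM in C3. *Col1a2* was its mirror, with E1C5Δ/Δ below Wt without overlap in 11 of 11 positions and E1C8Δ/Δ in none. *Col5a1* was below Wt without overlap in 9 positions in either mutant. *Col4a1* was so in 7 positions in E1C8Δ/Δ, *Col6a3* in 6 in E1C8Δ/Δ and 8 in E1C5Δ/Δ, *Col1a1* in 7 and *Col3a1* in 8 in E1C5Δ/Δ.

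**Figure D5:**
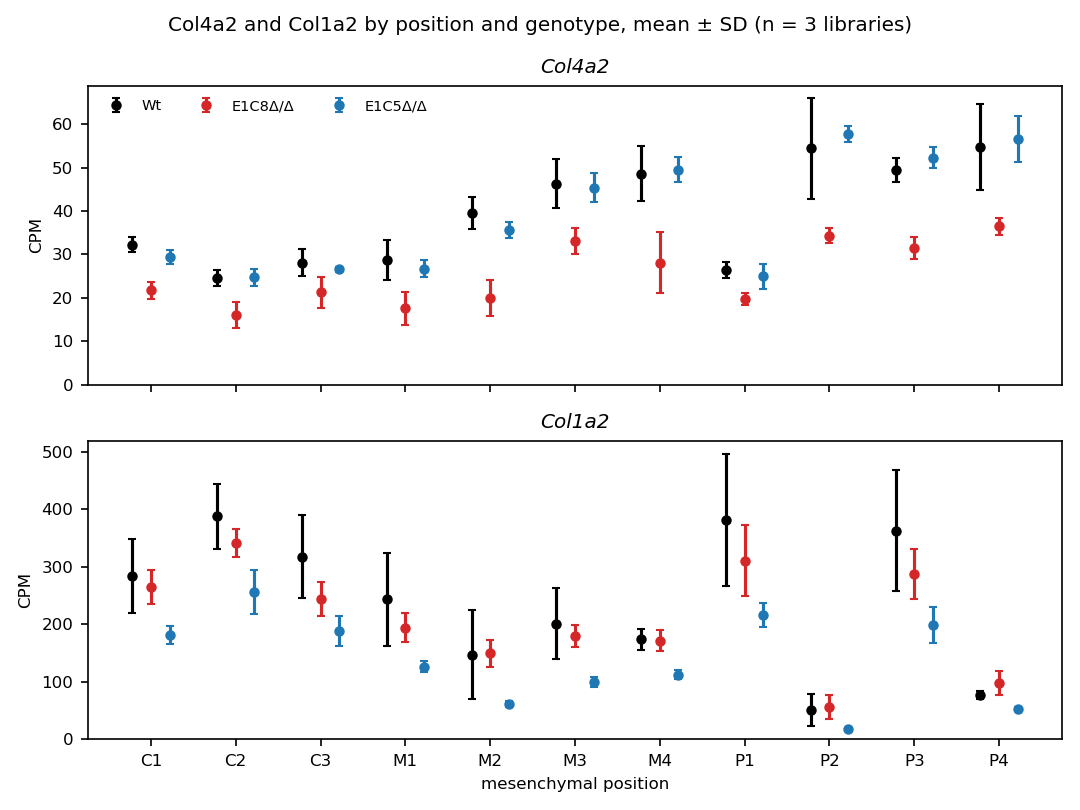
Level of *Col4a2* (upper panel) and *Col1a2* (lower panel) in each mesenchymal position by genotype, in CPM, as mean ± SD of 3 libraries. *Col4a2* is lowest in E1C8Δ/Δ in each of the 11 positions, and *Col1a2* is below Wt in E1C5Δ/Δ in each of them.

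In the other cell types the design had less power, with 2 or 3 libraries per genotype and type in most cases. Of 51 pairs of member and type, edgeR called none for both mutants against Wt, where 0.0809% (higher) and 0.171% (lower) of all pairs of feature and type were called, and 6 had an unadjusted p below 0.05. DESeq2 called 0 as well. The fold change was negative in 32 of the 51 pairs (62.7%), with a median of -0.12, against 50.1% and a median of 0 over all 42048 pairs of feature and type, of which 6.62% had an unadjusted p below 0.05. *Col4a2* in endothelium had 667 and 654 CPM in Wt, 598, 479 and 551 CPM in E1C5Δ/Δ and 456 and 473 CPM in E1C8Δ/Δ. Both Wt libraries were the highest, but the log2 fold change of -0.37 was not called (edgeR adjusted p = 0.902). In muscle it had 44.0, 47.1 and 42.3 CPM in Wt, 42.3, 48.0 and 54.9 CPM in E1C5Δ/Δ and 28.7 and 26.8 CPM in E1C8Δ/Δ. In ectoderm it had 153 and 175 CPM in Wt, 136 and 173 CPM in E1C5Δ/Δ and 118 and 107 CPM in E1C8Δ/Δ. In each of these 3 types the E1C8Δ/Δ libraries were the lowest, as they were in mesenchyme, though in endothelium only by 473 against 479 CPM. The contrast of both mutants had log2 values of -0.28 in muscle and -0.32 in ectoderm without a call (edgeR adjusted p = 0.321 and 0.996), and E1C8Δ/Δ alone was not tested there. These types come from the same libraries as the mesenchyme and are not independent of it. The share of all features with this order was not counted, so that nothing is concluded from it. *Col15a1* in endothelium, with 281 and 322 CPM in Wt and 183 to 272 CPM in the mutants, had a log2 value of -0.45 without a call (0.902).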

How the data were processed

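The authors deposited, for each of the 9 libraries, UMI counts per feature and barcode, made from 10x 3′ reads with Cell Ranger 6.0.1 on mm10, without normalization and before their cell filters; the submitters' notes also name Seurat 4.3.0.1. Members and lists were chosen with earlier results of these data known. Barcodes were retained at over 2500 genes, under 200000 UMIs and under 10% UMIs of mitochondrial genes. Doublets were scored against artificial doublets among nearest neighbours, at 0.8% per 1000 barcodes. A type required 5 of its 8 markers and at most 3 of any other type and 4 of mesenchyme, and mesenchyme required 4 of 8 and at most 2 of any other. Positions were the highest mean z-score of the study's signature lists. Sums of at least 20 cells were fitted with edgeR 4.0.16 (TMM, filterByExpr), with the library as block for types and positions and with all 9 libraries for genotype. The 1809 X- and Y-linked and 4 transgene features were left out, except in the fit for *Col4a5* and *Col4a6*. TMM factors were divided by their geometric mean in mesenchyme. Each SE of a log2 fold change was derived from the edgeR F statistic, as the size of the change over the square root of F. For genes given without a test, the SE is thus no independent support either. Named members were, besides those called by genotype, the 5 with the largest and 3 with the smallest called changes per type and the 2 largest per position. In simulated counts, 200 genes were changed by 1 on the log2 scale. For both mutants against Wt in mesenchyme 67.5% were recovered (22% at 0.5), beside 5 false calls (7 at 0.5). Against mesenchyme, 89.5% were recovered for muscle, 83.5% for endothelium, 69% for ectoderm, 85% for erythroid and 64% for myeloid cells. False calls there numbered 15, 10, 21, 9 and 14, in the same order. In ectoderm, 21 false calls stood beside 138 recovered genes, and at 0.5 for both mutants 7 beside 44. In most of these comparisons false calls were thus a larger share of all calls than the cutoff for a call allows. Alternatives were DESeq2 1.42.0, other scalings and filters, thinning to 10000 UMIs, looser and stricter cell choices, a replicate block, embryo sex as covariate and leaving out each library. One listed gene is not reported by name. R 4.3.3 and Python 3.11.15 were used. Counting intervals and floors cover counting error only.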

Additional observations from a re-analysis of the deposited data

Results flagged for a closer look

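7 members differed between E1C8Δ/Δ and E1C5Δ/Δ in mesenchyme by edgeR's test of that difference. On the log2 scale, E1C8Δ/Δ minus E1C5Δ/Δ, the values were 1.15 for *Col19a1*, 0.75 for *Col1a1*, 0.63 for *Col1a2*, 0.51 for *Col6a3*, 0.35 for *Col3a1*, -0.55 for *Col4a1* and -0.73 for *Col4a2*.

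Of 60 groups of 4 to 10 libraries examined with Dixon's test, 6 had a single library standing apart, where chance gives about 1 in 20. *Col26a1* in muscle reached 152 CPM in Wt replicate 3, with the next library at 109 CPM. *Col12a1* in muscle was 1.68 CPM in E1C8Δ/Δ replicate 2 (next 0.892), and *Col25a1* in ectoderm 4.83 CPM in the same library (next 1.31). *Col14a1* in C3 was 11.9 CPM in Wt replicate 3 (next 2.00), and *Col13a1* in P1 was 11.1 CPM in that library (next 2.54). *Col13a1* in M4 was 0 CPM in E1C8Δ/Δ replicate 1 (next 1.34), the library with the fewest UMIs.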

How the results depend on the processing

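Counts of called members held within 1.5 times of the value reported for muscle, ectoderm, erythroid and myeloid cells, positions and C1 to C3 under every alternative run, and for endothelium except under the stricter gate (12 in place of 19). That gate also reversed *Col17a1* in endothelium to -4.65, and scaling by library totals, added after seeing the data, reversed erythroid *Col18a1* and *Col5a1* to -0.34 and -0.56. The counts by genotype moved more. For both mutants in mesenchyme (3 reported) they were 0 to 2 without single libraries, 1 with cells over 1000 genes, and 0 with thinning or sex as covariate. E1C8Δ/Δ (3) kept 2 to 3 without single libraries and 1 with sex as covariate, and E1C5Δ/Δ (3) had 0 to 2, 0 with sex and 6 with DESeq2. E1C8Δ/Δ against E1C5Δ/Δ (7) had 1 to 8 without single libraries and 4 without a filter. In positions (1 reported) there were 1 to 7 without single libraries, 9 with DESeq2, 38 without a filter, 3 with cells over 1000 genes, 6 without doublet removal, 3 with the stricter gate, 2 with a margin between positions, and 0 with thinning or sex. Other cell types (0 reported) had 1 without a filter. The cause of these shifts was not tested.

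Whether libraries of the same replicate number also share a round of processing is not given by the labels. Correlations of their deviations from the group means were -0.141 to 0.088, against -0.144 to 0.257 for pairs with unlike numbers. With 3 libraries per group, these values cannot decide whether a round was shared. With a replicate block, calls in mesenchyme were 0 for both mutants, 2 for E1C8Δ/Δ (*Col4a1* lost, -0.52), 0 for E1C5Δ/Δ and 3 for E1C8Δ/Δ against E1C5Δ/Δ.

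With 3 libraries per genotype, small differences can be missed, and members with few UMIs give wide intervals.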
